A study of Mus musculus with 5 samples.

Results

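Basophils and mast cells are granulocytes that bind immunoglobulin E (IgE) and release histamine, proteases and cytokines from their granules. Expression of 10 genes that mark these cells was examined in myeloid progenitors of mice with a mutated Bcor gene. The genes were Fcer1a, Ms4a2, Fcer1g, Cpa3, Mcpt8, Prss34, Gzmb, Hdc, Cd200r3 and Il4, which are 10 of the 52550 genes in the count table. They were chosen by name, with the difference between the genotypes in these libraries already known, so that their levels and fold changes are given as a description and no test is read from them. BCOR is a subunit of a variant Polycomb repressive complex, which silences genes through histone modification.

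RNA was sequenced from the 3′ end (QuantSeq) in KL cells, the Lin-cKIT+Sca-1- fraction of bone marrow that holds committed myeloid progenitors. BcorΔE9-10 mice (n = 3 libraries) had the genotype scl-Cre-ERT + with Bcorfl/y, in which Cre removes exons 9 and 10 of the only copy of the gene. BcorWT mice (n = 2 libraries) had scl-Cre-ERT + with Bcorwt/y. Both groups were male, carried the tamoxifen-inducible Cre transgene and were given 1 mg of tamoxifen a day for 5 days at an age of 3 to 6 months. KL cells were taken 20 weeks later. The transgene is driven by a stem cell element of the SCL gene, so KL cells lose the exons when they descend from a stem cell in which Cre was active, and the share of such cells in each library was not analysed here. Libraries are numbered within each group, and nothing in the labels ties a number to a separate mouse, so the spread between libraries may in part be technical.

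The high-affinity IgE receptor FcεRI is built from an α chain that binds IgE (Fcer1a), a β chain that amplifies the signal (Ms4a2) and a γ chain that carries it and also serves other Fc receptors (Fcer1g). Granules of these cells hold carboxypeptidase A3 (Cpa3), the basophil proteases encoded by Mcpt8 and Prss34, and histamine made by histidine decarboxylase (Hdc). Gzmb encodes granzyme B, which is also a protease of cytotoxic lymphocytes, Cd200r3 an activating receptor of basophils and mast cells, and Il4 the type 2 cytokine interleukin 4. Basophils and mast cells arise in bone marrow from myeloid progenitors in which GATA factors act, and some of these progenitors lie within the KL gate.

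Promoters were inspected for letters that the 10 genes share. The RefSeq promoter table (build GRCm38.p6) held 11 promoters for the 10 genes, with 2 for Il4. The GATA motif was taken as AGATAA or TGATAA on either strand in the 250 bases before the start. It was found before 5 of the 10 genes, and in 16.6% of all 32851 promoters in the table. Its letters lay 92 bases before the start of Fcer1a, 46 before Cpa3 and 31 before Prss34, at 224, 37 and 11 bases before Ms4a2, and at 115 and 39 bases before Cd200r3. The last 100 bases before the start are shown for the α and β chains and the 3 granule proteases with the most counts, 5′ to 3′ on the strand of the gene, with the GATA letters in capitals.
Fcer1a (chr1:173227230-173227329, minus): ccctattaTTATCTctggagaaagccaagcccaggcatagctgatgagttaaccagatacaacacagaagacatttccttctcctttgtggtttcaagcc
Ms4a2 (chr19:11623720-11623819, minus): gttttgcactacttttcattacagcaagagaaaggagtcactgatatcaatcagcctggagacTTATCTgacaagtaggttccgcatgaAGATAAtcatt
Cpa3 (chr3:20242182-20242281, minus): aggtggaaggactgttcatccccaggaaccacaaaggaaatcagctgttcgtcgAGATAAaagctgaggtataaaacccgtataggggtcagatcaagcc
Prss34 (chr17:25298294-25298393, plus): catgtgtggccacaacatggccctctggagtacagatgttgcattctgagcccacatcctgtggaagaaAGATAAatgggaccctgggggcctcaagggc
Mcpt8 (chr14:56085198-56085297, minus): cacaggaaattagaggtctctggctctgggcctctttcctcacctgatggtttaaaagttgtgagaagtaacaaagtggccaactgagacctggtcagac

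The Mcpt8 window held no match, nor did those of Fcer1g, Gzmb, Hdc and Il4. A link between the motif and the fold changes below was not tested. The RUNX motif TGTGGT was found before 4 of the genes (Fcer1a, Cpa3, Mcpt8 and Gzmb) and in 14.05% of all promoters. The C/EBP motif TTGCNNAA lay before 3 (Fcer1a, Cd200r3 and Il4) and in 9.56% of all, and the STAT motif TTCNNNGAA before 0, with 7.02% of all. Overlap between motifs was not examined, and these matches describe letters, not binding.

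The libraries held 5998924 to 8303999 counts, of which the 10 genes took 0.0646, 0.0517 and 0.0657% in BcorΔE9-10 and 0.0975 and 0.0792% in BcorWT. At this depth 3 counts in a library correspond to 0.35 to 0.489 CPM (counts per 1e+06 TMM-scaled counts). Bcor itself, whose removed exons are not read by 3′ counts, was at 23.1, 27.4 and 21.6 CPM in BcorΔE9-10 and at 11.8 and 16.1 CPM in BcorWT, so it does not check the labels. Kit was detected in every library, at 18.1 to 53.3 CPM, and Ly6a, which encodes Sca-1, lay at 0.444 to 1.14 CPM.

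Of the 10 genes, 7 passed the filter on low counts and 3 (Gzmb, Cd200r3 and Il4) did not. All 7 had a fold change below 0, and 5 of them (Prss34, Mcpt8, Cpa3, Hdc and Fcer1g) were called lower in BcorΔE9-10 at a limma adjusted p under 0.05. None was called higher by limma, edgeR or DESeq2. Among all 11766 genes tested 4.09% were called lower, and nothing is read from the comparison because the genes were chosen with this contrast known. The levels of 6 of the 7 did not overlap between the groups, as against 20.3% of all genes tested that were lower without overlap. The median log2 fold change of the 7 genes was -0.87, and that of all genes tested 0.0043. In bulk RNA, fewer cells of a type and less RNA of these genes per cell cannot be told apart.

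The first BcorWT library was the highest of the 5 for 6 of the 7 genes. Without it 2 of the 5 calls were kept, those of Mcpt8 and Prss34, and the median of the 8 genes then tested, Cd200r3 among them, was -0.45. Scaling by total counts alone moved the median over all genes tested to 0.15 (log2), which changed the split of all calls from 481 lower and 708 higher to 197 lower and 1210 higher. It kept the calls of Cpa3, Mcpt8 and Prss34. The summed level of all 10 genes was 632.7, 505.1 and 608.7 CPM in BcorΔE9-10 and 1048 and 830.2 CPM in BcorWT, a log2 ratio of means of -0.69. Most of it was Hdc (means of 218 and 320.1 CPM) and Fcer1g (199 and 262 CPM), whose chain also serves other Fc receptors. Without Hdc the log2 ratio was -0.764.

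**Figure D1:**
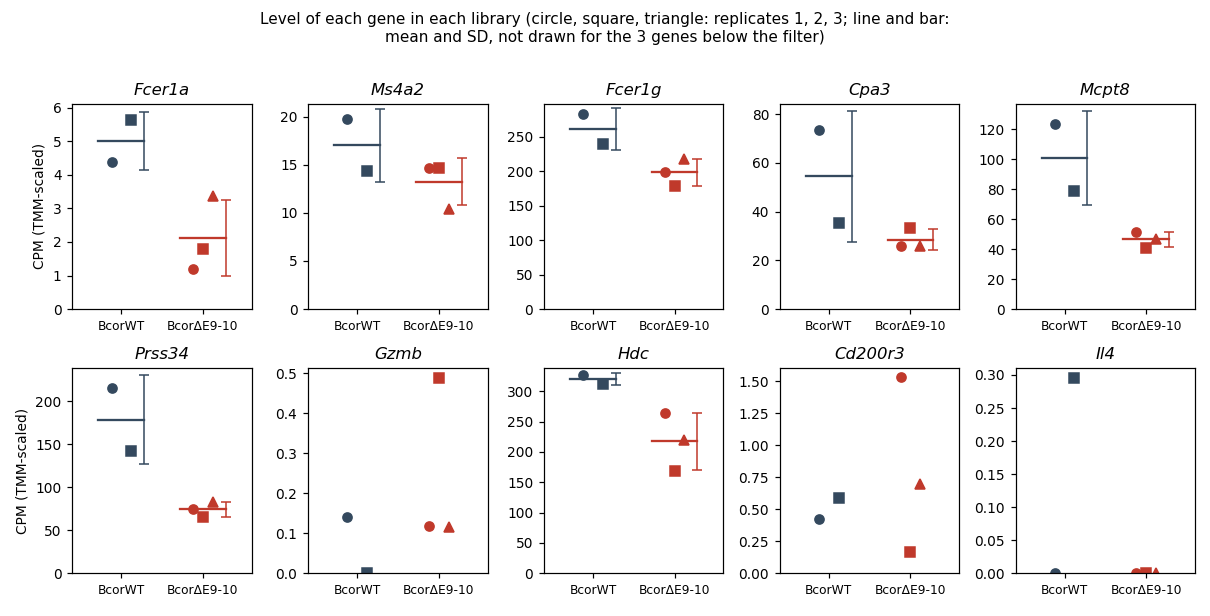
Level of each of the 10 genes in each library in TMM-scaled CPM on a linear axis from 0, with BcorWT (2 libraries) on the left and BcorΔE9-10 (3 libraries) on the right of each panel; symbols mark replicate numbers, and lines and bars the mean and SD of the 7 genes that passed the filter. Mcpt8 and Prss34 sit lower in all 3 BcorΔE9-10 libraries than in both BcorWT libraries, whereas Ms4a2 overlaps between the groups.

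The subunits of FcεRI were described first. Fcer1a (ENSMUSG00000005339.10, mm10 chromosome 1, 173221284 to 173227214, minus strand) had 10, 11 and 29 counts in BcorΔE9-10 and 31 and 38 in BcorWT, or 1.18, 1.79 and 3.38 CPM and 4.39 and 5.62 CPM. The groups did not overlap, but the third BcorΔE9-10 library lay closer to the first BcorWT library than to the other BcorΔE9-10 libraries. The mean was 2.12 ± 1.14 CPM (SD, n = 3) in BcorΔE9-10 and 5.01 ± 0.867 CPM (SD, n = 2) in BcorWT, with a fitted log2 fold change of -1.32 (SE 0.463) that was not called.

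Ms4a2 (ENSMUSG00000024680.12, chromosome 19, 11615523 to 11623719, minus strand) was at 14.6, 14.7 and 10.4 CPM in BcorΔE9-10 and at 19.7 and 14.4 CPM in BcorWT. The second BcorWT library lay within the range of the BcorΔE9-10 libraries. Its log2 fold change of -0.38 (SE 0.235) was not called. The group means, 13.2 ± 2.46 CPM (SD, n = 3) and 17.0 ± 3.79 CPM (SD, n = 2), were closer to each other than the BcorWT libraries were.

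Fcer1g (ENSMUSG00000058715.11, chromosome 1, 171229572 to 171234365, minus strand), whose chain is also used by Fc receptors of neutrophils and monocytes, was at 199, 179 and 218 CPM in BcorΔE9-10 and at 283 and 240.2 CPM in BcorWT. All 3 BcorΔE9-10 libraries were below both BcorWT libraries. The mean was 199 ± 19.7 CPM (SD, n = 3) in BcorΔE9-10 and 262 ± 30.5 CPM (SD, n = 2) in BcorWT, with a fitted log2 fold change of -0.39 (SE 0.119). This call was lost when any 1 library other than the second of BcorWT was left out, after GC correction and with total counts alone. Without 1 of those libraries the fold change ran from -0.48 to -0.28, lowest in size without the first BcorWT library. The BcorWT mean was 1.32-fold the BcorΔE9-10 mean for the γ chain, 1.29-fold for the β chain and 2.36-fold for the α chain, of which the γ chain alone was called. Counts of Fcer1a relative to Fcer1g and to Ms4a2 overlapped between the groups.

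The granule proteases showed the lowest fold changes among the called genes. Prss34 (ENSMUSG00000056399.1, chromosome 17, 25298394 to 25300161, plus strand), a tryptase-like protease of basophils, was at 75.0, 65.3 and 82.4 CPM in BcorΔE9-10 and at 215 and 142 CPM in BcorWT. All 3 BcorΔE9-10 libraries lay below both BcorWT libraries. The mean was 74.2 ± 8.55 CPM (SD, n = 3) in BcorΔE9-10 and 179 ± 51.7 CPM (SD, n = 2) in BcorWT, with a 2.41-fold difference and a fitted log2 fold change of -1.24 (SE 0.161).

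Mcpt8 (ENSMUSG00000022157.8, chromosome 14, 56082166 to 56085273, minus strand), which encodes a serine protease found in basophil granules, was at 51.4, 41.1 and 47.1 CPM in BcorΔE9-10 and at 123 and 78.7 CPM in BcorWT. As with Prss34, the BcorΔE9-10 libraries lay close together and below both BcorWT libraries, which differed 1.57-fold from one another. The mean was 46.5 ± 5.22 CPM (SD, n = 3) in BcorΔE9-10 and 101 ± 31.6 CPM (SD, n = 2) in BcorWT, with a fitted log2 fold change of -1.08 (SE 0.174). Without the first BcorWT library the log2 fold change was -0.76 for Mcpt8 and -0.94 for Prss34, and both were still called.

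Cpa3 (ENSMUSG00000001865.2, chromosome 3, 20215620 to 20242181, minus strand), a carboxypeptidase of mast cell and basophil granules that is also expressed in their progenitors, was at 26.1, 33.4 and 26.0 CPM in BcorΔE9-10 and at 73.6 and 35.5 CPM in BcorWT. The BcorWT libraries differed 2.07-fold, and the lower of them was close to the second BcorΔE9-10 library. Its log2 fold change was -0.87 (SE 0.238) with all libraries and -0.35 without the first BcorWT library, where the call was lost. The call was also lost without the first or the third BcorΔE9-10 library, with fold changes of -0.81 and -0.83 that were close to the value with all libraries.

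Gzmb (ENSMUSG00000015437.5, chromosome 14, 56258838 to 56262260, minus strand) had 1, 3 and 1 counts in BcorΔE9-10 and 1 and 0 in BcorWT. Over each group this was 0.225 counts per 1e+06 unscaled counts (95% exact Poisson interval 0.0730 to 0.524) and 0.0682 (0.00173 to 0.380), intervals that overlap and cover counting error only. A difference in Gzmb was not detectable at this depth.

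Hdc (ENSMUSG00000027360.5, chromosome 2, 126593667 to 126619299, minus strand), the enzyme that makes histamine from histidine, was at 264, 169 and 220.5 CPM in BcorΔE9-10 and at 327 and 313 CPM in BcorWT. The BcorWT libraries were nearly equal, and the BcorΔE9-10 libraries were all lower and spread more widely. The mean was 218 ± 47.1 CPM (SD, n = 3) in BcorΔE9-10 and 320.1 ± 10.3 CPM (SD, n = 2) in BcorWT, with a fitted log2 fold change of -0.57 (SE 0.142). The call was lost without the first BcorWT library (-0.54) and with total counts alone (-0.42).

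Cd200r3 (ENSMUSG00000036172.17, chromosome 16, 44943678 to 44981380, plus strand) had 13, 1 and 6 counts in BcorΔE9-10 and 3 and 4 in BcorWT. The BcorΔE9-10 libraries held both the highest and the lowest count, and the first of them alone gave 13 of the 20 counts of its group. Per 1e+06 unscaled counts, the groups were at 0.899 (95% exact Poisson interval 0.549 to 1.39) and 0.477 (0.192 to 0.983), intervals that overlap and leave out the spread between libraries. A difference in Cd200r3 in either direction was not detectable at this depth. Il4 (ENSMUSG00000000869.12, chromosome 11, 53602982 to 53618669, minus strand) had 0 counts in all 3 BcorΔE9-10 libraries, which allows up to 0.135 counts per 1e+06 at a limit of 3 counts over the group and up to 0.166 by the exact Poisson interval, and 0 and 2 counts in BcorWT. Both groups were at or under 3 counts, and no fold change is given.

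No 30-base word in the last 300 bases of these 10 transcripts occurred in another gene of the annotation, and no gene overlapped them on the opposite strand. Cpa3 holds the microRNA gene Mir7007 and Mcpt8 the gene Mir6949 on the same strand.

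Counts of a pair of these genes within a library share its depth and its scaling, so their ratio does not depend on either. The ratio of Mcpt8 to Prss34 counts was 0.686, 0.628 and 0.572 in BcorΔE9-10 and 0.573 and 0.554 in BcorWT, which overlapped. Prss34 counts were 5.13, 4.46 and 7.93 times those of Ms4a2 in BcorΔE9-10 and 10.9 and 9.91 times in BcorWT, with no overlap.

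For Mcpt8 the ratio to Ms4a2 was 3.52, 2.80 and 4.54 in BcorΔE9-10 and 6.26 and 5.49 in BcorWT, again lower in every BcorΔE9-10 library. The ratios of Cpa3 and of Fcer1a to Ms4a2 overlapped. Prss34 relative to Hdc was 0.285, 0.386 and 0.374 in BcorΔE9-10 and 0.658 and 0.454 in BcorWT. Of 9 ratios examined 5 overlapped between the groups, and none was tested.

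A list of 63 other genes with a role in basophils and mast cells was examined next, with each gene tested in the same limma fit over all genes. Of these, 46 passed the filter, 4 were called lower and 5 higher, beside 4.09% of all genes tested called lower and 6.02% called higher. The median log2 fold change of the 46 was -0.25. The list as a whole held genes that many myeloid cells express, and its summed level was 4436, 4129 and 4282 CPM in BcorΔE9-10 and 4573 and 4715 CPM in BcorWT.

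Among 8 granule proteases of mast cells, Mcpt1, Mcpt2, Mcpt4, Mcpt9, Tpsb2, Tpsab1 and Tpsg1 had 0 counts in every library. Cma1, a mast cell chymase, had 2, 0 and 6 counts in BcorΔE9-10 and 5 and 4 in BcorWT. The mast cell receptor gene Mrgprb2 and the basophil receptor gene Ptgdr2 were also at 0 throughout, as was the cytokine Il13. Proteases of mature mast cells were thus near or at 0 in libraries in which Cpa3, Mcpt8 and Prss34 had 205 counts or more each.

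Of 8 transcription factors 7 were tested and 1 was called. Gata2, which is required for mast cell and basophil development and is also a factor of early progenitors, rose from 10.9 ± 1.00 CPM in BcorWT (SD, n = 2) to 23.0 ± 2.74 CPM in BcorΔE9-10 (SD, n = 3), by 1.05 on the log2 scale (SE 0.226; adjusted p = 0.00726 in limma). Its direction was opposite to that of the 5 members called lower. Ikzf1 (-0.32), Cebpa (-0.34) and Stat5b (0.34) were not called (adjusted p = 0.103, 0.167 and 0.143 in limma).

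All 8 cytokine and growth factor receptors were tested. Csf2rb, the β chain shared by the receptors for IL-3, IL-5 and GM-CSF, was at 65.7, 66.8 and 74.5 CPM in BcorΔE9-10 and at 127 and 120.1 CPM in BcorWT. Every BcorΔE9-10 library was well below both BcorWT libraries (log2 fold change -0.84, SE 0.124, adjusted p = 0.000506 in limma). Il3ra, the α chain for IL-3, was at -0.47 on the log2 scale (adjusted p = 0.268 in limma), Il4ra at -0.41 (0.122) and Crlf2 at -0.26 (0.274), none past the threshold.

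Kit, the receptor for stem cell factor on which mast cells depend and which was used to sort these cells, went the other way. It was at 49.3 to 53.3 CPM in the BcorΔE9-10 libraries and at 18.1 and 19.5 CPM in BcorWT (log2 fold change 1.43, SE 0.173, adjusted p = 9.82e-05 in limma). Because the cells were sorted on cKIT protein, its RNA level is not independent of the gate.

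The 14 genes of FcεRI signalling were all tested. Lcp2, an adaptor protein below the receptor, fell by 0.43 in log2 units (SE 0.133, adjusted p = 0.0491 in limma), a call that was lost when any 1 library was left out, although the fold change then ran from -0.48 to -0.39. Vav1 (-0.28), Ptpn6 (-0.26) and Lyn (-0.22) were below 0 but not called (adjusted p = 0.156, 0.191 and 0.285 in limma). Of the 14 genes 12 had a fold change below 0, with a median of -0.26, beside 5835 of all 11766 genes tested below 0. Lcp2 alone was called, and the list was not tested as a set.

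Of 9 genes of the granule matrix and of mediator synthesis 7 were tested. The leukotriene pathway genes Alox5 and Alox5ap fell by 0.67 (SE 0.123, adjusted p = 0.00255 in limma) and by 0.36 (SE 0.101, 0.0318) in log2 units, though the call of Alox5ap was lost without any 1 library other than the second of BcorWT, with fold changes of -0.41 to -0.30. Srgn, the proteoglycan that holds proteases in granules and is expressed by most blood cells, was at 439.8, 456 and 434 CPM in BcorΔE9-10 and at 154 and 221 CPM in BcorWT. It rose by 1.26 in log2 units (SE 0.13, adjusted p = 3.11e-05 in limma) while the granule proteases were lower. Ptgs1 (-0.19), Ndst2 (-0.55) and Pla2g4a (0.71) were not called (adjusted p = 0.469, 0.0885 and 0.155 in limma).

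Among cytokines, 5 of 7 genes were tested and Osm, which encodes oncostatin M, was higher by 0.76 in log2 units (SE 0.174, adjusted p = 0.0108 in limma), a call lost without the third BcorΔE9-10 library (0.70) or the second BcorWT library (0.51). Tnf (-0.45), Ccl3 (0.84) and Ccl4 (0.76) were not called (adjusted p = 0.168, 0.179 and 0.321 in limma). Among surface molecules, 5 of 9 were tested and Cd9, a tetraspanin found on basophils, mast cells, megakaryocytes and early progenitors, was higher by 1.01 in log2 units (SE 0.141, adjusted p = 0.000297 in limma). The granule membrane marker Cd63 (-0.20), Itgb7 (-0.62) and Cd69 (0.25) were not called (adjusted p = 0.163, 0.0708 and 0.664 in limma). Lcp2, Alox5ap and Cd9 overlap genes on the opposite strand, whose reads their counts may hold if strand was not used in counting. Csf2rb overlaps a microRNA gene on its own strand.

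**Figure D2:**
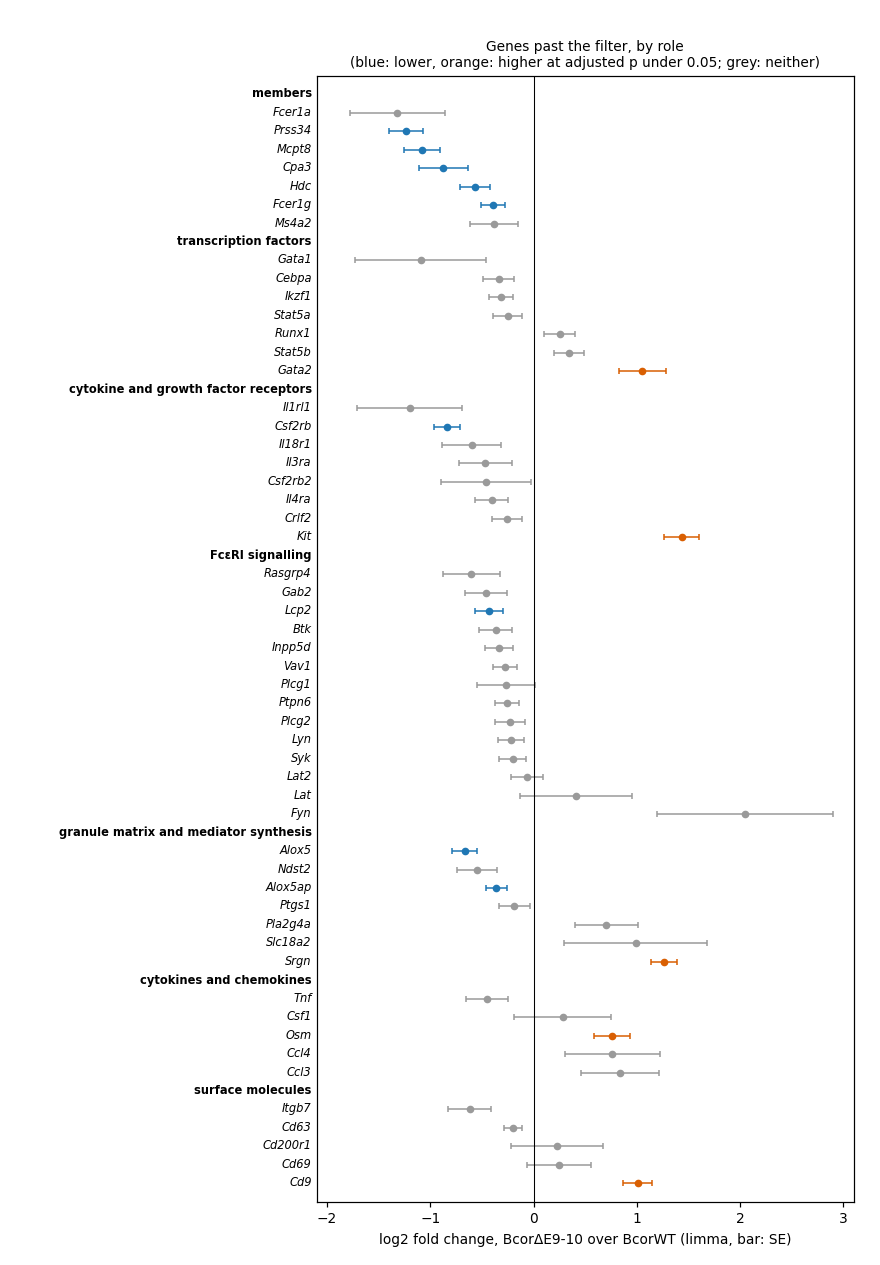
Log2 fold change of BcorΔE9-10 over BcorWT with the SE of the limma fit, for the 7 chosen genes and the 46 other basophil and mast cell genes that passed the filter, grouped by role; blue marks genes called lower, orange genes called higher and grey genes not called. The 5 called members lie left of 0, while Gata2, Kit, Srgn, Osm and Cd9 lie right of it.

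Markers of other cells that the gate could hold were measured in the same libraries. Of 10 eosinophil genes 8 were tested and 6 were called lower (Epx, Prg2, Prg3, Ear1, Ear2 and Ear6), with a median log2 fold change of -1.31. Siglecf, a surface marker of eosinophils, was at 13.6, 11.6 and 13.3 CPM in BcorΔE9-10 and at 9.07 and 6.21 CPM in BcorWT, higher without overlap but not called (log2 fold change 0.77, SE 0.269, adjusted p = 0.0831 in limma). The summed level of the list was 452.6, 289 and 374.5 CPM in BcorΔE9-10 and 985 and 831 CPM in BcorWT, with no overlap. Ear1, Ear2 and Ear6 share 82.7, 60.5 and 17.7% of the 30-base words at their ends with other genes, so their single values are uncertain. Prg2, a granule protein of eosinophils and also of basophils, fell by 1.30 in log2 units (SE 0.15, adjusted p = 7.73e-05 in limma). Prss34 counts relative to Prg2 were 0.193, 0.280 and 0.268 in BcorΔE9-10 and 0.264 and 0.206 in BcorWT, which overlapped.

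Of 9 genes of maturing neutrophils, 5 were called lower (S100a8, S100a9, Ngp, Ltf and Lcn2), with a median of -0.61. Camp alone had a fold change above 0 (0.25, adjusted p = 0.114 in limma). The summed level of the list was 1.73e+05, 1.60e+05 and 1.49e+05 CPM in BcorΔE9-10. In BcorWT it was 2.27e+05 and 2.15e+05 CPM, with no overlap and far above that of any other list. Of 8 monocyte and dendritic genes 1 was called lower (Ly6c2), with summed levels of 1144 to 1284 CPM in BcorΔE9-10 and 1513 to 1520 CPM in BcorWT. In contrast, 0 of 5 early granulocyte genes (Elane, Mpo, Prtn3, Ctsg and Ms4a3) were called by limma, edgeR or DESeq2, with 1 at an unadjusted limma p under 0.05, and their summed level overlapped between the groups. Mcpt8 counts relative to Ctsg, its neighbour on the chromosome and a gene of granulocyte progenitors, were 0.099, 0.0712 and 0.0975 in BcorΔE9-10 and 0.338 and 0.166 in BcorWT.

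Summed erythroid genes ranged from 56.6 to 242 CPM in BcorΔE9-10 and from 19.4 to 60.3 CPM in BcorWT, with 1 of 6 tested called higher (Car1) by limma and 4 by edgeR. Megakaryocyte genes (43.9 to 69.9 against 26.6 to 45.6 CPM) and B-lymphoid genes (8.85 to 19.1 against 7.39 to 12.8 CPM) had 0 called by limma, edgeR or DESeq2, with 1 and 0 at an unadjusted limma p under 0.05. The B cell marker Ms4a1 was at 0 throughout. Of 11 T and NK genes 7 were tested, 5 with a fold change above 0, with a median of 1.20 and Il2rb alone called higher. Their summed level of 158 to 196 CPM against 195 to 207 CPM had the other sign, and most of it was Nkg7 (122 to 164 CPM against 182 to 183 CPM), a gene also expressed by myeloid cells. Of the genes that respond to cell handling, limma called 2 higher (Fos and Fosb) and 2 lower (Hspa1a and Hspa1b), edgeR 2 higher and 1 lower, and DESeq2 1 higher and 0 lower. Their summed level was highest in the first BcorWT library, at 2144 CPM as against 1156 CPM in the second and 1394 to 1447 CPM in BcorΔE9-10. The part of eosinophil, neutrophil, monocyte and erythroid RNA and of cell handling in the fold changes of the 10 genes was not tested.

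**Figure D3:**
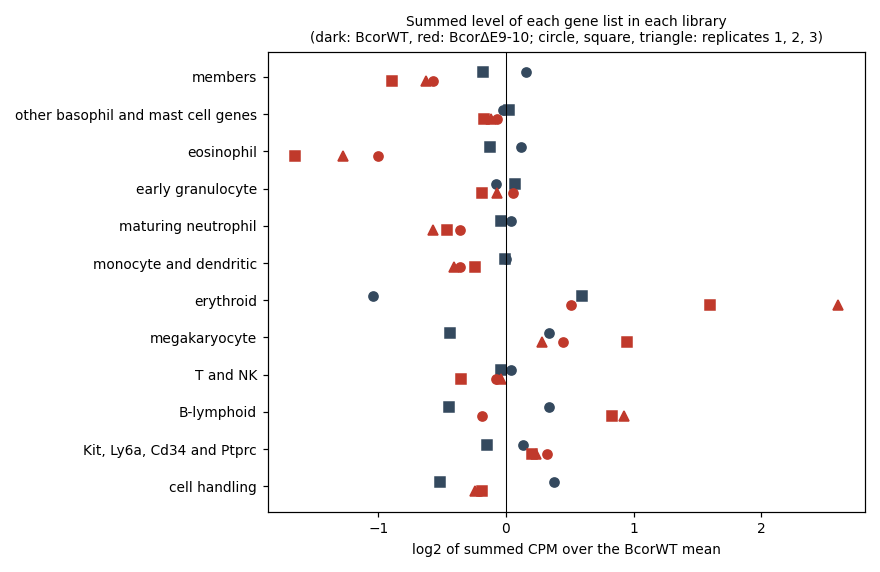
Summed CPM of each gene list in each library, as the log2 ratio to the BcorWT mean of that list, with BcorWT in dark and BcorΔE9-10 in red and symbols for replicate numbers. The 10 chosen genes (members) and the eosinophil list lie left of 0 in all 3 BcorΔE9-10 libraries. So do the other basophil and mast cell, maturing neutrophil, monocyte and dendritic, T and NK, and cell handling lists. The T and NK, cell handling and early granulocyte lists overlap between the groups.

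Genes near the 10 loci were examined to see whether their surroundings moved with them. Within 200 kb lay 175 genes, counting once a gene that is near more than 1 locus, and 64 of these passed the filter. Of the 64, 6 were called lower and 4 higher, beside 4.09 and 6.02% of all genes tested, and 1 of the 6 was Mcpt8 itself as a neighbour of Gzmb. The lower neighbours were Gm5511 (near Ms4a2, log2 fold change -0.99), Fcgr4 (-0.79) and B4galt3 (-0.53) near Fcer1g, Gyg (near Cpa3, -0.50) and Usp50 (near Hdc, -0.56), with limma adjusted p-values of 0.0333, 0.0299, 0.0129, 0.039 and 0.00489. Fcgr4 encodes a low-affinity Fc receptor that signals through the chain of Fcer1g. The higher neighbours were Ms4a4b (1.47), Hps3 (0.84), Unkl (1.75) and the pseudogene Rps2-ps4 (2.15), with limma adjusted p-values of 0.0297, 0.0417, 0.0172 and 0.04.

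The nearest tested neighbours of Mcpt8 and Ms4a2 were not called. Ctsg, 14.6 kb from Mcpt8 in the granzyme and chymase cluster, had 4406, 3541 and 4145 counts in BcorΔE9-10 and 2572 and 3215 in BcorWT, or 0.33 in log2 units (adjusted p = 0.0895 in limma). The chymase genes between 19.9 and 61.8 kb on the other side of Mcpt8 (Mcpt4, Mcpt2, Mcpt9 and Mcpt1) were at 0. Ms4a3, 5.78 kb from Ms4a2, was at 0.11 in log2 units (adjusted p = 0.58 in limma). The tryptases Tpsab1, Tpsb2 and Tpsg1, 43.1 to 69.1 kb from Prss34, were at 0 in every library.

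**Figure D4:**
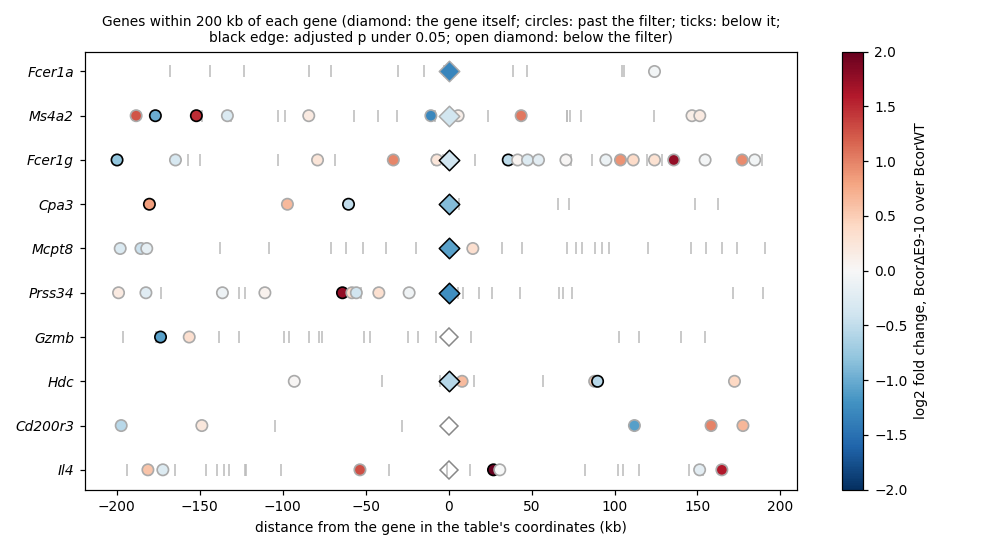
Genes within 200 kb of each of the 10 genes, by distance in kb in the coordinates of the count table (0 is the gene itself, diamond), coloured by log2 fold change of BcorΔE9-10 over BcorWT; circles passed the filter, ticks did not, and a black edge marks an adjusted p under 0.05. Most circles are pale or uncalled, including Ctsg beside Mcpt8 and Ms4a3 beside Ms4a2.

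The fold changes of the 7 tested genes were followed over 13 alternatives of test, scaling, filter, correction and libraries. Prss34 ran from -1.53 to -0.94 and Mcpt8 from -1.40 to -0.76, and both were called lower under all 13. Hdc ran from -0.72 to -0.41 and was called under 11, Cpa3 from -1.39 to -0.35 under 10, and Fcer1g from -0.51 to -0.25 under 7. Fcer1a, with the fewest counts of the 7, ran from -1.78 to -0.92 and was called under 2, and Ms4a2 from -0.60 to -0.16 under 0. No fold change of these genes changed sign under any of these alternatives.

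**Figure D5:**
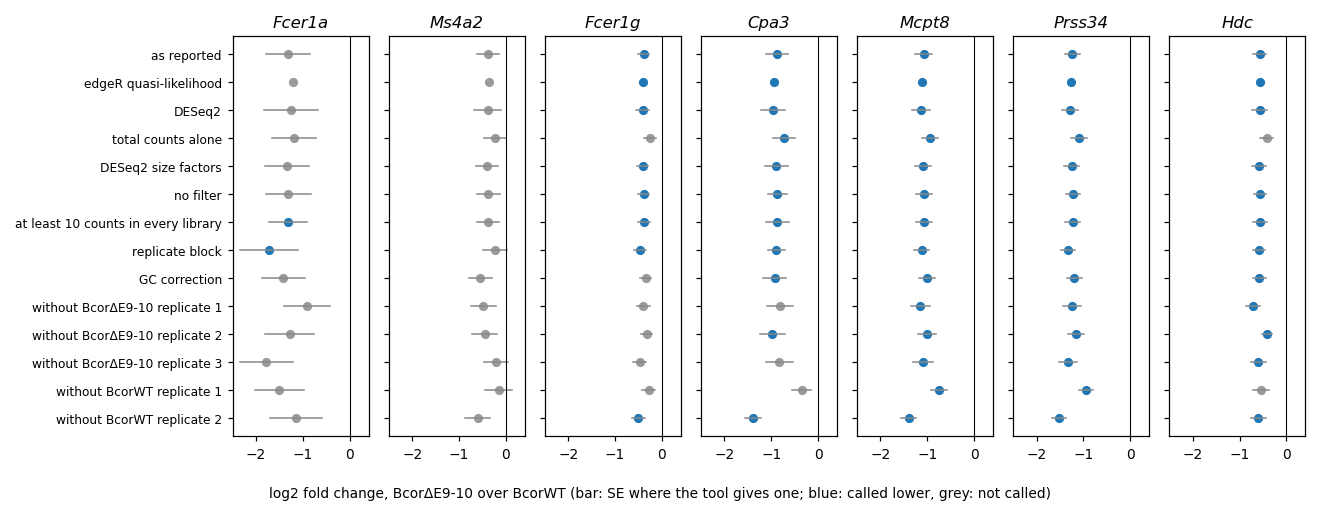
Log2 fold change of BcorΔE9-10 over BcorWT for the 7 genes that passed the filter, as reported and under 13 alternatives (rows), with SE bars where the tool gives one; blue marks a call of lower and grey no call. Mcpt8 and Prss34 are blue in every row, and without BcorWT replicate 1 the points of Cpa3, Mcpt8 and Prss34 move towards 0.

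Genes whose levels were most like the mean profile of the 7 tested members were found by Pearson correlation of log2 CPM over the 5 libraries, among 7641 others whose mean log2 CPM reached 3. The highest were Zkscan6 (r = 0.999), Spast (0.998), Il1rn (0.998), Nisch (0.996) and Tbc1d17 (0.995), and 260 genes reached 0.95. Il1rn, the antagonist of the interleukin 1 receptor, was at 23.9, 20.7 and 22.1 CPM in BcorΔE9-10 and at 74.1 and 45.7 CPM in BcorWT. As in the profile of the members, its highest level was in the first BcorWT library and its lowest in the second BcorΔE9-10 library. These points share 2 groups and 1 set of libraries, so likeness here describes 5 libraries and carries no p-value.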

How the data were processed

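KL cell RNA was sequenced with the QuantSeq 3′ kit. The authors trimmed reads (cutadapt, whose version the sources give differently), aligned them to mm10 (HISAT2) and counted them per gene (featureCounts, Subread 1.5.0-p3), and the deposited values are raw counts. Options for strand and multiply aligned reads are not given in the sources used here. Of 52550 genes, 52403 matched GENCODE M21, 94.97% with the same start and end.

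The filter was filterByExpr in edgeR 4.0.16 (count 10, total 15), the scaling TMM and the test limma 3.58.1 with voom in R 4.3.3, two-sided, with Benjamini-Hochberg adjustment over 11766 genes. CPM is per 1e+06 TMM-scaled counts. The code was tested on simulated data.

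The members and gene lists were chosen with earlier results of these data known. Named were all members, called list genes with up to 3 others per role by mean CPM, called neighbours and markers, and the 5 most alike genes. Alternatives were edgeR, DESeq2 (version 1.42.0), total counts, DESeq2 size factors, 2 filters, a replicate block, GC correction (lowess span 0.3 on the last 300 bases) and leaving out each library. Libraries of a group differed beyond sampling noise (chi-square per gene 6.01 to 11.6).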

Additional observations from a re-analysis of the deposited data

How the results depend on the processing

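Of the chosen genes 5 were called lower, and 3 with total counts alone, a scaling that shifts all genes upwards. Without 1 library the number ran from 2 to 5, the lowest without the first BcorWT library, and their median log2 fold change from -0.978 to -0.446. Their summed level had a log2 ratio of -0.848 to -0.512 without 1 library, the weakest again without the first BcorWT library. Of the other basophil and mast cell genes 4 were called lower, 2 with total counts alone and 2 to 6 without 1 library. Over the lists of other cell types, of sorting and progenitor genes and of cell handling, the number called higher was 5 (Car1, Il2rb, Kit, Fos and Fosb), but 8 with edgeR, 11 with total counts alone, 12 with no filter, 13 with the replicate block and 2 to 8 without 1 library. These fits filter genes anew, so Cd200r3 enters the median where 1 BcorWT library is left, and there the lone library is assumed to vary like the others. Where no cause is named it was not tested.

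With the replicate block 563 genes were called lower and 891 higher, among them 6 of the chosen genes, with Fcer1a added. Deviations of same-numbered libraries correlated at 0.07 and 0.0756, and the labels tie no library to another, so a pairing was not established; whether same-numbered libraries share a batch or day cannot be told from 2 such pairs. For 16 single genes there were 208 comparisons with an alternative, of which 181 kept their side of the threshold, 25 lost a call (19 of them without 1 library), 2 gained one and 0 changed direction. Depth limits Fcer1a, with 10 to 38 counts in a library, and leaves Gzmb, Cd200r3 and Il4 untested in the fit as reported. With no filter Gzmb, Cd200r3 and Il4 were fitted at 1.05 (SE 1.02), 0.32 (SE 0.931) and -1.30 (SE 1.03) in log2 units, and none was called.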
